A study of Glycine max with 12 samples.

Results

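The stretch described here is a run of neighbouring soybean (Glycine max) genes on chromosome 2, from Glyma.02G060600 to Glyma.02G090500, whose transcripts lay higher in the transgenic line GmNAC81-3 than in its parent cultivar. Its members were chosen by locus ID, as all loci of this range that passed a filter on low counts, and the range itself was proposed after the difference between the genotypes had been seen. The count table held 279 loci of the range, with 425 transcript models, of which 208 loci passed the filter and are the members, of 39443 tested loci in the whole table. Of the 71 loci that did not pass, 5 had no count in any library, 59 had from 1 to 50 counts over all libraries, and the other 7 reached at most 407. Because the range was proposed on it, the shift between GmNAC81-3 and BR16 at either stage is given as a description. Calls from a test of this shift are printed below, but nothing is read from them. The stage contrasts were not used to choose the members, although they share libraries with the contrasts that did.

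The samples were the third leaf of greenhouse plants, in 4 groups of 3 plants, and 1 RNA library was made per plant. BR16 is the untransformed cultivar, and GmNAC81-3 is 1 transgenic line in BR16, of its R5 generation, that carries GmNAC81 behind the constitutive 35S promoter. V3 leaves were taken at 20 days after germination (DAG), in vegetative growth, and R6 leaves at 80 DAG, when the leaf begins to senesce. The study also names the line GmNAC81-1 for sequencing, but the libraries used here come from GmNAC81-3 alone. Whatever distinguishes this line from BR16 besides the transgene therefore cannot be told apart from the transgene. V3 and R6 libraries went through separate sequencing sets, which cannot be told apart from stage.

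GmNAC81 is a NAC transcription factor, a member of a plant family of DNA-binding regulators, and acts in leaf cell death and senescence. Its own locus is on chromosome 12, not on chromosome 2. Genes that lie side by side on a plant chromosome are as a rule transcribed separately, and their transcript levels in 1 tissue commonly differ by orders of magnitude. Soybean is an old polyploid, and most of its genes have a related copy elsewhere in the genome, so part of the reads of a member can be difficult to tell from those of its copy. RNA alone was measured, so neither the DNA nor the proteins of the segment are described. In whole leaves, a change in the cells that make up the leaf and a change in the RNA of each cell cannot be told apart.

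The libraries held from 42797825 to 77952663 counts. Levels are given as CPM, the counts of a locus relative to a library's total, divided by library sizes scaled with TMM, a method that sets the typical locus equal between libraries. The scaling was uneven, with TMM factors of 0.498 to 0.657 for GmNAC81-3 V3 and 0.931 to 1.45 for the other libraries. The 3 most abundant loci took 44.1% to 58.5% of the counts in GmNAC81-3 V3 against 32.1% to 38.5% in BR16 V3. At R6 they took 38.6% to 54.2% in GmNAC81-3 and 37.5% to 47.6% in BR16. GmNAC81 itself stood at 3.58 to 7.26 CPM in BR16 V3, 33.4 to 184 in GmNAC81-3 V3, 11.3 to 60.7 in BR16 R6 and 46.6 to 69.1 in GmNAC81-3 R6, so its libraries were apart at V3 and overlapped at R6. As a check of the tissue, the 4 loci of rubisco activase, which keeps the carbon-fixing enzyme of the leaf active, summed to 5169 to 11015 CPM in BR16 V3, 15716 to 19042 CPM in GmNAC81-3 V3 and 436 to 1178 CPM at R6 in both genotypes. These loci were picked by the study on the same libraries and are used for their level alone.

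The members lay higher in GmNAC81-3 than in BR16 at both stages. Over the 208 members the median shift, the fitted log2 fold change of GmNAC81-3 with BR16, was 0.66 at V3 and 0.87 at R6, which are folds of 1.58 and 1.82. It was above 0 for 163 members at V3 and for 172 at R6. Over all tested loci the median was -0.04 at V3 and 0.00 at R6, and over the other chromosomes it ran from -0.08 to -0.01 at V3 and from -0.04 to 0.03 at R6. By the same measure, the rest of chromosome 2 stood at -0.04 and -0.01.

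The shift did not fill the range of IDs. The members were ordered by ID, which runs along the chromosome, and the pair of edges was sought that best splits chromosome 2 into a raised stretch and the rest (a least-squares fit of 2 levels, with single shifts limited to 2 on the log2 scale). At R6 the raised stretch ran from Glyma.02G066300 to Glyma.02G091500 and held 178 tested loci, of which 172 were members. At V3 it ran from Glyma.02G066000 to Glyma.02G091500, with 181 tested loci. Limits of 1.5 and 3 on single shifts gave the same edges. This search was chosen after seeing the values, and it places an edge without saying how certain that edge is.

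Thus the first 36 members lay before the raised stretch, and 6 tested loci after the last member lay inside it. The 172 members from the left edge on had a median shift of 0.77 at V3 and 0.95 at R6, or 1.71-fold and 1.93-fold, with 141 and 152 of them above 0. The 36 members before that edge had medians of 0.27 and 0.07. The 6 loci after the last member, from Glyma.02G090600 to Glyma.02G091500, stood at 0.93 and 0.71, all 6 above 0 at both stages. The 50 tested loci before the first member had medians of 0.13 and -0.06, and the 50 after the right edge had -0.01 and 0.08.

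**Figure D1:**
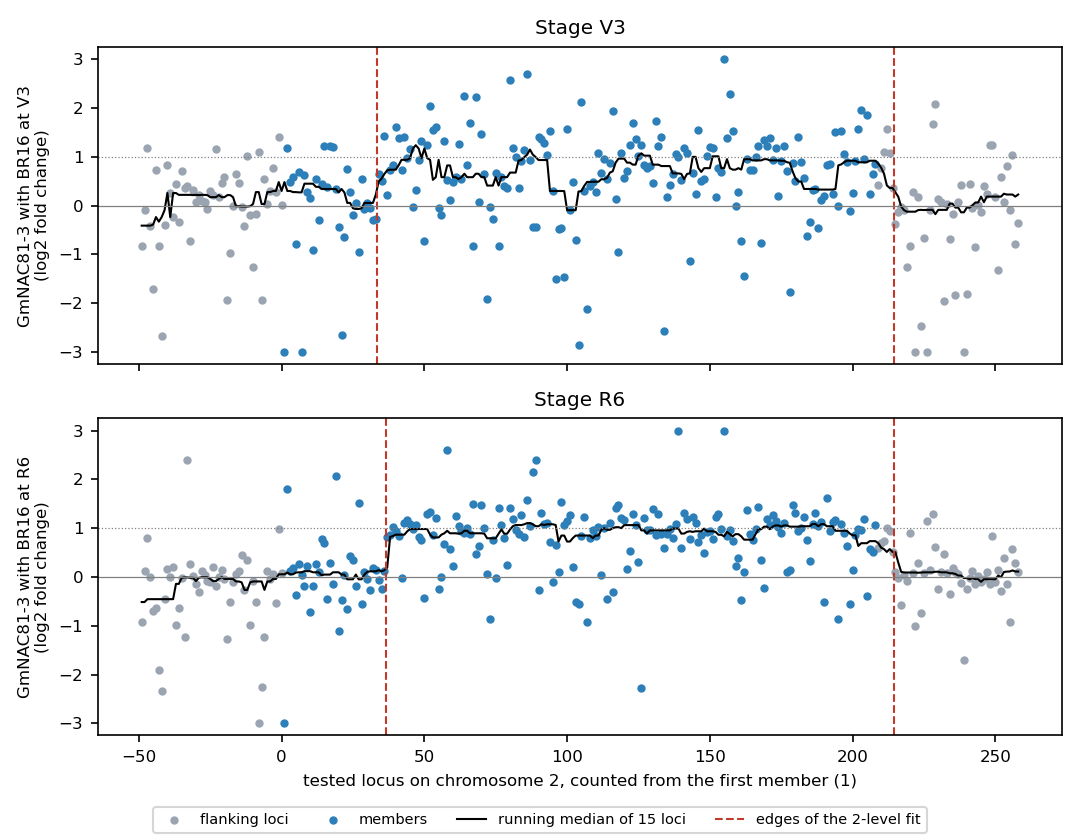
Fitted log2 fold change of GmNAC81-3 with BR16 at V3 (top) and R6 (bottom) for 308 tested loci of chromosome 2 in order of locus ID, with members in blue, 50 flanking loci on each side in grey, the running median of 15 loci as a black line, and the edges of the 2-level fit as dashed lines. Shifts beyond 3 on the log2 scale are drawn at that limit (6 loci at V3, 4 at R6). The running median at R6 steps up at the left edge and stays between 0.64 and 1.10 over the members that follow, while at V3 it is more uneven.

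The left edge at R6 lay between loci of unequal shift, though not every locus inside was raised. Glyma.02G066200, just outside it, held 5.51, 5.96 and 6.22 CPM in BR16 R6 and 7.35, 6.02 and 5.78 CPM in GmNAC81-3 R6. Glyma.02G066400, the second locus inside, held 6.25, 5.43 and 5.28 CPM in BR16 R6 and 12.2, 9.63 and 9.14 CPM in GmNAC81-3 R6. The libraries thus overlapped at the outer locus and were apart at the inner one, with shifts of 0.12 and 0.87. Between them lies Glyma.02G066300, a rare transcript of 0.184 CPM on average, whose shift of 0.82 rested on overlapping libraries. The next locus inside, Glyma.02G066500, held 7.52, 6.28 and 7.21 CPM in BR16 R6 and 14.3 ± 2.54 CPM (SD, n = 3) in GmNAC81-3 R6, without overlap. A little further in, Glyma.02G066600 overlapped, with a shift of 0.93 at R6, and Glyma.02G066800 had none, with 3.29, 3.31 and 2.61 CPM in BR16 R6 against 3.64, 2.68 and 2.78 CPM in GmNAC81-3 R6.

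At V3 the same edge was less clear. Glyma.02G066200 held 1.09, 2.57 and 1.47 CPM in BR16 V3 against 4.59 ± 2.18 CPM (SD, n = 3) in GmNAC81-3 V3, a shift of 1.42 with overlapping libraries. Glyma.02G066000 was apart at V3, with 3.89, 3.27 and 3.53 CPM against 6.27, 5.69 and 4.77 CPM, but not at R6. Both are among the 3 loci by which the stretch was longer at V3 than at R6.

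At the other end, the last member, Glyma.02G090500, held 3.29 ± 0.397 CPM (SD, n = 3) in BR16 V3 and 6.60, 5.65 and 5.66 CPM in GmNAC81-3 V3. At R6 it held 4.19, 3.89 and 4.05 CPM against 7.48, 9.59 and 8.43 CPM. Both stages were thus apart at the last member. The 4 members before it, Glyma.02G089300, Glyma.02G089500, Glyma.02G090200 and Glyma.02G090300, had shifts of 0.95, 1.86, 0.23 and 0.65 at V3 and 1.18, -0.40, 0.57 and 0.51 at R6. Of these, Glyma.02G090200 was apart at both stages and Glyma.02G090300, the rarest, at neither. The 5 tested loci after the last member, Glyma.02G090600, Glyma.02G090800, Glyma.02G091100, Glyma.02G091200 and Glyma.02G091300, had shifts of 0.41, 0.78, 1.10, 1.57 and 1.08 at V3 and 0.60, 0.69, 0.73, 1.01 and 0.94 at R6, all above 0. Among them, Glyma.02G091200 held 52.3 ± 1.25 CPM (SD, n = 3) in GmNAC81-3 V3 against 17.6 ± 2.51 in BR16 V3, and 33.8 ± 5.48 against 16.8 ± 1.71 at R6. At Glyma.02G091500, the last raised locus, the shift was down to 0.36 at V3 and 0.51 at R6. Glyma.02G091700, the second locus outside, held 3.40 ± 0.447 CPM in GmNAC81-3 V3 against 3.72 ± 0.321 in BR16 V3 (SD, n = 3), and 5.51 ± 0.452 against 5.56 ± 0.524 at R6. The values of both genotypes overlapped there at both stages.

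The loci on either side of the first member had no common shift at R6. The 5 tested before it, Glyma.02G059900, Glyma.02G060000, Glyma.02G060100, Glyma.02G060200 and Glyma.02G060500, had shifts of 0.30, 0.76, 0.28, 1.40 and 0.00 at V3 and -0.04, 0.05, -0.53, 0.98 and 0.09 at R6. The members next to the first, Glyma.02G060700, Glyma.02G061000, Glyma.02G061100 and Glyma.02G061200, had 1.17, 0.48, 0.58 and -0.80 at V3 and 1.80, 0.12, 0.18 and -0.36 at R6. At R6 both sets hold values above and below 0, while at V3 none of the 5 before the first member was below 0, and Glyma.02G060000 and Glyma.02G060200 were apart. Glyma.02G060500, just before it, held 11.5, 19.6 and 16.2 CPM in BR16 V3 and 13.7, 16.9 and 16.8 CPM in GmNAC81-3 V3, which overlap. The next tested locus out, Glyma.02G060200, was higher in GmNAC81-3 in all libraries at both stages, with shifts of 1.40 and 0.98, although both its neighbours tested, Glyma.02G060100 and Glyma.02G060500, overlapped at both stages. Glyma.02G060600, the first member, went the other way. It held 0.376, 0.437 and 0.523 CPM in BR16 V3 and 0.355, 0.341 and 0.219 CPM in BR16 R6, and no count in any of the 6 GmNAC81-3 libraries. Against a floor of 3 counts per library it was at least 4.11-fold lower in GmNAC81-3 at V3 and at least 7.36-fold lower at R6. This bound covers counting error alone, and low counts were mostly even numbers in every library, so a count may not be a fragment.

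The shift was also taken for each library. For each locus, the log2 CPM of a library was set against the mean of the BR16 libraries of its stage, and the median was taken over the loci. Over the 172 members from the left edge on, the GmNAC81-3 V3 libraries had medians of 0.82, 0.74 and 0.75, and the GmNAC81-3 R6 libraries 0.90, 0.92 and 0.94. The BR16 libraries lay between -0.03 and 0.04. The SD between the GmNAC81-3 libraries was 0.04 at V3 and 0.02 at R6 (n = 3). These are the libraries on which the range was proposed and its edge placed, so the values describe the 172 members and support nothing further. Over the 36 members before the edge, the GmNAC81-3 libraries lay between 0.01 and 0.08 at V3 and between -0.14 and 0.14 at R6.

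**Figure D2:**
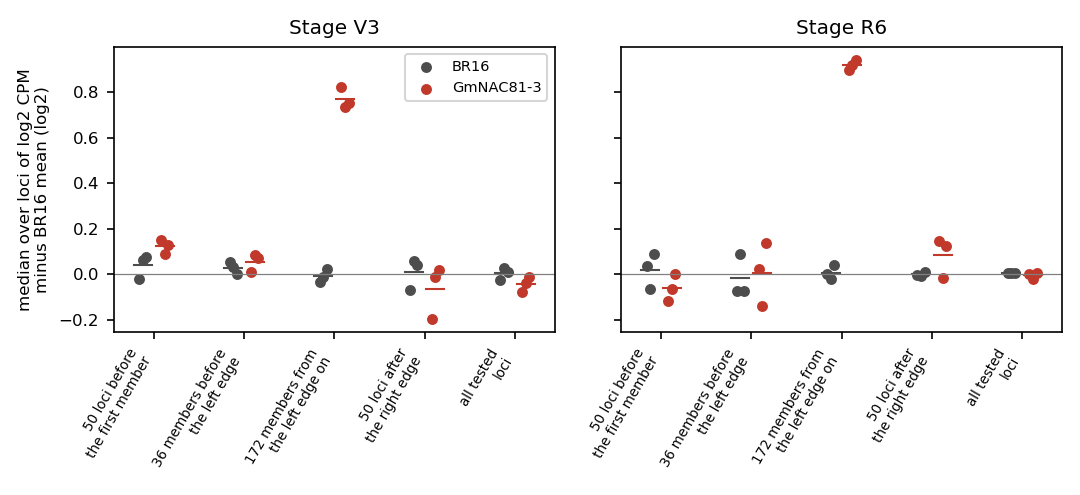
Median over loci of log2 CPM minus the BR16 mean of the same stage, for each library of BR16 (dark) and GmNAC81-3 (red), at V3 (left) and R6 (right), with group means as bars. The 172 members from the left edge on give medians of 0.74 to 0.82 at V3 and 0.90 to 0.94 at R6 in GmNAC81-3, while the flanking loci and the members before the edge stay between -0.20 and 0.15.

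The summed level has to be read with the scaling in view. The 172 members summed to 1267 ± 36.3 CPM in BR16 V3 and 2553 ± 271 CPM in GmNAC81-3 V3, a ratio of 2.02, and to 1037 ± 29.3 CPM in BR16 R6 and 1948 ± 131 CPM in GmNAC81-3 R6, a ratio of 1.88 (SD, n = 3). Over all tested loci the same sums had ratios of 2.05 at V3 and 1.14 at R6. At V3 the ratio was thus near that of all tested loci, and at R6 it was above it. As a share of all counts, without TMM, the 279 loci of the range took 0.183% to 0.214% in BR16 V3 and 0.160% to 0.205% in GmNAC81-3 V3, which overlap, and 0.147% to 0.193% in BR16 R6 against 0.207% to 0.302% in GmNAC81-3 R6, which do not. The shift at V3 is therefore relative to the typical locus, for which the medians above were near 0. With DESeq2's size factors in place of TMM the median shift of the members moved by less than the SD between libraries at both stages.

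The size of the shift was most even among abundant transcripts. Of the 172 members from the left edge on, 40 had a mean of 10 CPM or more over the 12 libraries, and all 40 were higher in GmNAC81-3 at both stages. Their shift had a median of 1.07 at V3 and 1.06 at R6, and at R6 the middle 50% of them fell within a range of 0.24, with 37 of the 40 between 0.5 and 1.5. At V3 the middle 50% spanned 0.64, and 27 of the 40 lay between 0.5 and 1.5. Over all tested loci of 10 CPM or more, the median shift was 0.18 at V3 and 0.04 at R6, and the middle 50% spanned 0.70 and 0.32. The 85 members of 1 to 10 CPM had medians of 0.81 and 0.98, and the 47 members under 1 CPM had 0.28 and 0.64. In this last class the values were wide, from -2.86 to 3.54 at V3. Since the low class is also the class with the largest counting error, its lower median cannot be read apart from its depth.

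**Figure D3:**
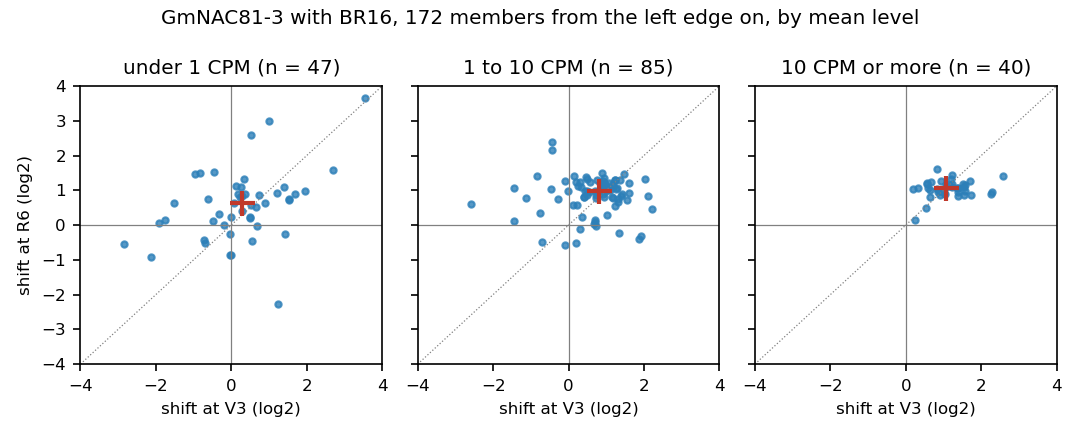
Shift between GmNAC81-3 and BR16 at V3 (horizontal) and at R6 (vertical), both as log2 fold change, for the 172 members from the left edge on, in 3 classes of mean level; the red cross marks the medians and the dotted line equal shifts. The 40 members of 10 CPM or more all lie in the upper right, above 0 on both axes, around 1.07 and 1.06, and the 47 under 1 CPM scatter on all sides.

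At most loci of the stretch with several transcript models, the models all lay above 0 at R6. Counted per model, 51 loci of the stretch had several models that passed the filter, 147 models in all. Of these models, 138 were above 0 at R6 and 130 at V3, with a median of 0.99 at R6. Within a locus the models typically differed by 0.22 at R6, and at 45 of the 51 loci all models were above 0. Models of a locus share exons, so they are not independent of each other. The stretch was placed by its shifts, and loci elsewhere were not counted in this way.

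Of the 208 members, 43 were called higher at V3 and 3 lower (edgeR's quasi-likelihood test, adjusted p under 0.05, with a log2 change beyond 1 in size), where 1.75% of all tested loci were called higher and 1.69% lower. The 43 were all among the 172 from the left edge on, and the 3 lower were Glyma.02G060600, Glyma.02G071400 (-1.92) and Glyma.02G080200 (-2.58). At R6, 9 members were called higher and 1, Glyma.02G060600, lower, against 0.0659% and 0.033% of all tested loci. The 9 were among 26 loci called higher in the whole table. The range was chosen on these contrasts, so the counts show what was chosen and nothing is read from them. They also depended on the fit. At V3 they dropped to 0 when BR16 V3 and GmNAC81-3 V3 were fitted alone without their replicate numbers (5 loci called higher in the whole table). With a replicate block in that fit, 46 were called (953 in the whole table). The count at V3 was 19, 12 and 19 without BR16 V3 replicate 2, BR16 V3 replicate 3 or GmNAC81-3 V3 replicate 2, in that order. The count at R6 was 45 with DESeq2, 1 with both R6 groups alone and 2 when replicate number entered the model as a block. In the whole table these fits called 116, 8 and 14 loci higher at R6. For fits with a library left out, whole-table counts are not given here, so a change in the segment cannot be told from a change everywhere. It also fell to between 0 and 3 without any 1 of the BR16 libraries, GmNAC81-3 V3 replicate 2 or any GmNAC81-3 R6 library, and was 14 without GmNAC81-3 V3 replicate 1.

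By libraries rather than calls, 89 members had all 3 GmNAC81-3 libraries above all 3 BR16 libraries at V3 and 6 had them all below, while 11.7% and 12.3% of all tested loci did so. At R6, 114 members were all higher and 8 all lower, against 6.8% and 6.86%. At both stages 69 members were all higher, against 1.34% of all tested loci, and 68 of them lay from the left edge on. One was all lower at both stages, Glyma.02G060600.

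The members with the largest shift at V3 among those apart at both stages were Glyma.02G072500, Glyma.02G082800, Glyma.02G075600, Glyma.02G068400, Glyma.02G070200, Glyma.02G068600, Glyma.02G089100 and Glyma.02G075100. The sources used here give no gene name for them. Their shifts ran from 1.57 to 2.58 at V3 and from 0.85 to 1.40 at R6, and for each of the 8 the value at V3 was the larger. Because they were ranked by their value at V3, a smaller value at R6 follows in part from the ranking.

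Glyma.02G072500 held 8.28, 7.35 and 7.51 CPM in BR16 V3 and 13.8, 65.6 and 58.6 CPM in GmNAC81-3 V3. At R6 it held 36.9, 50.3 and 48.0 CPM in BR16 and 120.2, 119.6 and 118 CPM in GmNAC81-3. The libraries were apart at both stages, and the shift was 2.58 (standard error 0.44) at V3 and 1.40 (0.42) at R6. The low value at V3 was that of replicate 1. The same library stood low for Glyma.02G078500, with 71.3 CPM against 439 and 534 in the other GmNAC81-3 V3 libraries, and for Glyma.02G070000, with 1.45 CPM against 27.0 and 14.3.

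Glyma.02G082800 held 9.61, 11.2 and 10.4 CPM in BR16 V3 and 36.5, 59.6 and 56.4 CPM in GmNAC81-3 V3. At R6 it stood at 7.51, 7.17 and 6.72 CPM against 13.6, 14.4 and 13.7 CPM. The lowest GmNAC81-3 library was above the highest BR16 library at both stages, and the shifts were 2.29 (standard error 0.20) and 0.96 (0.19). Glyma.02G075600 had a like pattern at a lower level, with 4.98 ± 0.452 CPM against 21.6 ± 5.33 CPM at V3 and 4.27 ± 0.786 against 7.70 ± 1.69 at R6 (SD, n = 3).

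Glyma.02G075100 held 21.9, 27.8 and 20.5 CPM in BR16 V3 against 86.3, 75.5 and 45.9 CPM in GmNAC81-3 V3, and 61.0, 63.5 and 71.0 CPM against 175, 109.9 and 149.6 CPM at R6. Its level went up with age in both genotypes and the shift was kept, at 1.57 and 1.15. Glyma.02G089100 was the reverse case in age. It held 28.4, 13.9 and 19.6 CPM in BR16 V3 against 81.3, 59.6 and 43.5 CPM in GmNAC81-3 V3, and 2.96, 3.61 and 2.22 CPM against 4.01, 7.70 and 5.75 CPM at R6. Its level was lower with age in both genotypes, and the shifts were 1.58 and 0.99.

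The 9 members called higher at R6 were Glyma.02G067100, Glyma.02G068600, Glyma.02G079900, Glyma.02G081000, Glyma.02G082200, Glyma.02G083800, Glyma.02G085000, Glyma.02G085200 and Glyma.02G090500, which are spread along the raised stretch. Their replicates were close together, which follows in part from their being called at shifts of this size. Glyma.02G082200, for example, held 3.51, 3.16 and 3.50 CPM in BR16 R6 and 8.53, 8.16 and 8.29 CPM in GmNAC81-3 R6, a shift of 1.30 (standard error 0.15), and Glyma.02G079900 held 3.59, 3.74 and 4.23 CPM against 10.6, 8.53 and 9.30 CPM, also 1.30 (0.15). At V3 the shifts of these 2 loci were 0.77 and 1.22.

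**Figure D4:**
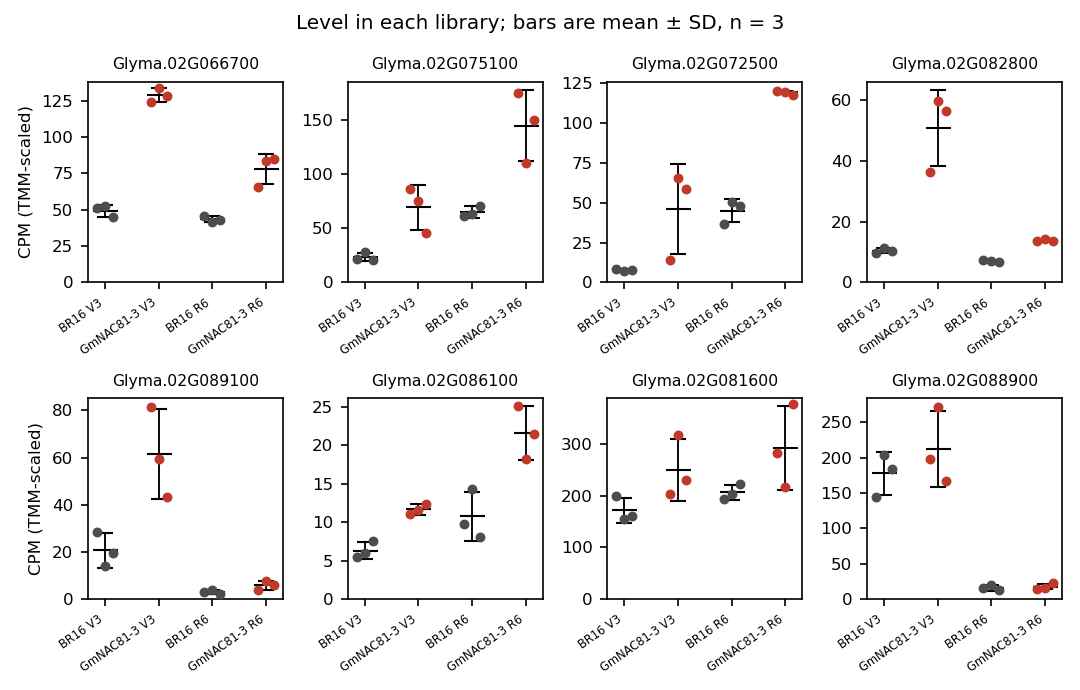
Level in CPM, scaled with TMM, of 8 members in each library of BR16 (dark) and GmNAC81-3 (red) at V3 and R6, with the mean and SD of 3 libraries; each panel has its own vertical axis from 0. The first 6 members are apart between genotypes at both stages, as with 8.28, 7.35 and 7.51 against 13.8, 65.6 and 58.6 CPM for Glyma.02G072500 at V3, while Glyma.02G081600 overlaps at R6 and Glyma.02G088900 at both stages.

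The 8 most abundant members were Glyma.02G081600, Glyma.02G064700, Glyma.02G078500, Glyma.02G061100, Glyma.02G088900, Glyma.02G075100, Glyma.02G066700 and Glyma.02G072500, with means of 54.5 to 231 CPM. These levels are not corrected for transcript length and give no order between genes. Glyma.02G066700 held 49.3 ± 4.08 CPM (SD, n = 3) in BR16 V3 and 124, 133 and 128 CPM in GmNAC81-3 V3, and 45.5, 41.8 and 43.3 CPM against 65.8, 83.2 and 84.7 CPM at R6. It lies near the left edge and was apart at both stages, with shifts of 1.38 and 0.84.

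Some abundant members inside the stretch moved little. Glyma.02G088900 held 144, 204 and 185 CPM in BR16 V3 and 199, 271 and 167 CPM in GmNAC81-3 V3, and at R6 15.1, 20.2 and 12.3 CPM against 14.5, 16.0 and 22.0 CPM. Its libraries overlapped at both stages, and its shifts were 0.26 and 0.15. The second was the smallest at R6 among the 40 abundant members, while Glyma.02G089100 close by was apart at both stages. Glyma.02G081600, the most abundant member by CPM, held 200.3, 155 and 162 CPM against 203, 317 and 231 CPM at V3 and 194, 204 and 223 CPM against 283, 217 and 378 CPM at R6. Its shifts were 0.54 and 0.50, and its libraries overlapped at R6. The other 38 abundant members of the stretch ran from 0.79 to 1.61 at R6.

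Both of the most abundant members before the left edge overlapped between genotypes at each stage. Glyma.02G064700 held 289, 125 and 207 CPM in BR16 V3 against 386, 159 and 203 CPM in GmNAC81-3 V3, and 85.6, 138 and 111 CPM against 165, 85.2 and 199 CPM at R6. Glyma.02G061100 held 211, 95.9 and 142 CPM against 330.4, 154 and 185 CPM at V3, and 40.5 ± 10.9 CPM against 45.9 ± 16.7 CPM at R6 (SD, n = 3). Their shifts, 0.27 and 0.58 at V3 and 0.43 and 0.18 at R6, had standard errors of 0.42 and 0.39 at either stage.

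Of the members, 3 carry a name in the study's gene lists, each given there by its Arabidopsis relative. Glyma.02G086100 is listed as RNA-dependent RNA polymerase 1, an enzyme that in Arabidopsis makes double-stranded RNA for antiviral silencing. It held 5.43, 5.94 and 7.52 CPM in BR16 V3 against 11.7 ± 0.679 CPM (SD, n = 3) in GmNAC81-3 V3, and 9.80, 14.4 and 8.10 CPM against 25.2, 18.2 and 21.5 CPM at R6. The genotypes did not overlap at either stage, and the shifts were 0.89 and 1.01.

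Glyma.02G085900 is listed as response regulator 2, which in Arabidopsis is a transcription factor of the cytokinin pathway. It held 3.28, 4.32 and 4.07 CPM against 3.80, 5.28 and 7.36 CPM at V3, which overlap, and 3.45, 3.68 and 4.14 CPM against 10.6, 8.26 and 9.14 CPM at R6, which do not. Glyma.02G073900 is listed as GATA transcription factor 4, of a family of zinc-finger regulators. It was rare, with 1.14, 0.489 and 0.638 CPM against 1.35, 2.15 and 2.53 CPM at V3 and 0.320, 0.123 and 0.150 CPM against 0.0331, 0.234 and 0.224 CPM at R6. Its libraries were apart at V3, with a shift of 1.41, and overlapped at R6, with -0.26. The study picked all 3 on these libraries, so they are no independent sample of the segment.

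The shift was more even along the segment at R6 than at V3. Of 165 running medians of 15 loci, centred from Glyma.02G067000 on, none was at or under 0.5 at R6, and 36 were at V3. The lowest at V3 was -0.10, centred on Glyma.02G075100, where the running median at R6 was 0.73. Around that centre lie several rare transcripts with a shift below 0 at V3, such as Glyma.02G075500 (-2.86 at 0.389 CPM on average) and Glyma.02G075800 (-2.13 at 0.0916 CPM), beside the abundant Glyma.02G075100, with 1.57. With a limit of 0.5 the longest run of running medians held 178 windows at R6, from Glyma.02G066400 to Glyma.02G091600, and 69 at V3, from Glyma.02G076700 to Glyma.02G085900. Across the 208 members the shifts at V3 and R6 had Pearson's r of 0.54 and Spearman's rho of 0.32, and the same sign for 157 members, or 75.5%, beside 0.22, 0.14 and 54.8% over all tested loci, as a description over loci that share libraries and are not independent replicates.

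Set beside the rest of the genome, the segment was not the highest window at R6. In windows of 51 tested loci, the 122 windows inside the raised part of the segment had medians of 0.49 to 0.95 at V3 and 0.89 to 1.00 at R6. Among the 37911 windows elsewhere, those at V3 ran from -0.60 to 0.47, and those at R6 from -1.27 to 1.54. The highest at R6 was on chromosome 13, centred on Glyma.13G020200, and stood at -0.47 at V3. The lowest was on chromosome 16, centred on Glyma.16G185300, and stood at 0.38 at V3. A median above 0.5 at both stages was seen in 117 of the 122 windows inside and in 0 of the 37911 elsewhere, while 133 windows elsewhere were above 0.5 at R6 alone. Neighbouring windows share loci, and the segment was chosen for its values, so these counts are a description.

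Many members changed with stage, and this contrast did not choose them. From V3 to R6 in BR16, 33 members rose and 43 fell, where 15.1% of all tested loci rose and 19.6% fell. As shares of the members these are 15.9% and 20.7%, near the background. In GmNAC81-3, 33 members rose and 48 fell, or 15.9% and 23.1%, where 16.5% and 20.1% of all tested loci did. The median stage effect over the members was -0.09 in BR16 and 0.05 in GmNAC81-3. The segment thus had no common change with stage. With the 4 groups in 1 model these counts stayed within 1.5 times when any library was left out.

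The stage effects of the members were alike in the genotypes. Of those called in either, 22 rose in both, 36 fell in both, and none was called in opposite directions. In BR16 alone 11 were called higher and 7 lower, in GmNAC81-3 alone 11 and 12, and 109 were called in neither. Being called in 1 genotype alone does not show a difference, and for no member was the difference of the stage effects called (edgeR's quasi-likelihood test, smallest adjusted p = 0.11), against 0.071% of all tested loci. At an unadjusted p under 0.05 in that test there were 32 of the 208 members, beside 5164 of the 39443 tested loci. DESeq2 called 9 members of 1027 loci, given with the limits, and the edgeR fit without GmNAC81-3 V3 replicate 1 called 3 members of 292 loci. Across the 208 members the stage effects had Pearson's r of 0.89 and Spearman's rho of 0.84, beside 0.85 and 0.82 over all tested loci. BR16 and GmNAC81-3 share no library in this comparison, but the loci are not independent replicates.

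**Figure D5:**
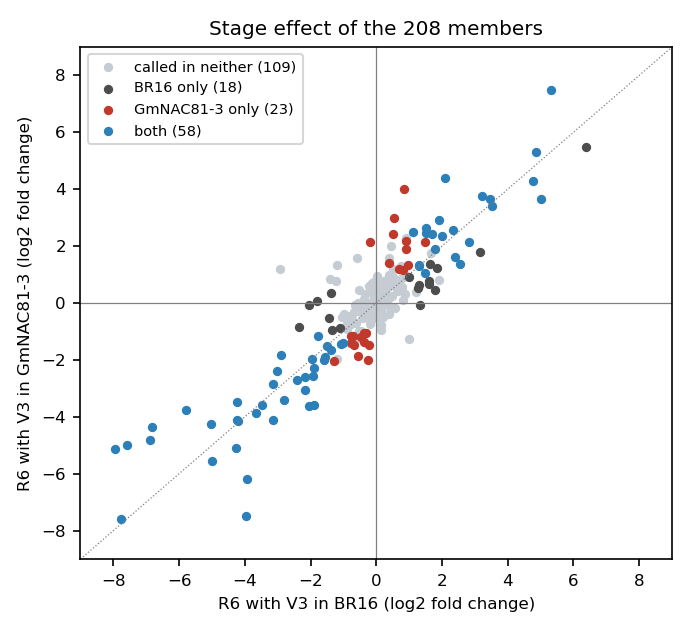
Fitted log2 fold change of R6 with V3 in BR16 (horizontal) and in GmNAC81-3 (vertical) for the 208 members, coloured by where the change was called; the dotted line marks equal effects. Of the members, 58 were called in both genotypes, 18 in BR16 alone, 23 in GmNAC81-3 alone and 109 in neither, and the points follow the line of equal effects.

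The members that fell most from V3 to R6 in BR16 were Glyma.02G073700, Glyma.02G068900, Glyma.02G073600, Glyma.02G069100 and Glyma.02G065000 (their order means little where a group is at or near 0). The most precise was Glyma.02G073600. It held 11.8, 20.7 and 17.2 CPM in BR16 V3 and 0.0888, 0.136 and 0.0346 CPM in BR16 R6, a log2 change of -7.57 with a standard error of 0.44 (edgeR quasi-likelihood, adjusted p = 8.63e-07). In GmNAC81-3 it held 9.38, 12.5 and 14.9 CPM at V3 and 0.265, 0.488 and 0.383 CPM at R6, a change of -4.99 with a standard error of 0.38 (adjusted p = 2.75e-06). The transcript was thus nearly lost in older leaves of both genotypes. Its neighbour Glyma.02G073700 followed the same course, from 7.51 ± 2.52 to 0.0237 ± 0.0410 CPM in BR16 and from 5.55 ± 1.76 to 0.155 ± 0.0849 CPM in GmNAC81-3 (SD, n = 3). Glyma.02G068900 had no count in any R6 library and was at least 13.0-fold lower at R6 in BR16 and at least 8.91-fold lower in GmNAC81-3, against 3 counts per library. Glyma.02G069100 had 214 counts in BR16 V3 and 2 in BR16 R6, a ratio of 148. Its 95% exact counting interval was 40.4 to 1228 if each count is 1 fragment. Glyma.02G065000, before the left edge, fell from 2.30 ± 0.383 to 0.0175 ± 0.0173 CPM in BR16 and from 1.20 ± 0.960 to 0.0567 ± 0.0651 CPM in GmNAC81-3 (SD, n = 3).

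Among abundant members, Glyma.02G088900 fell from 178 ± 30.7 to 15.8 ± 4.01 CPM in BR16 and from 212 ± 53.7 to 17.5 ± 3.98 CPM in GmNAC81-3 (SD, n = 3). The changes were -3.49 (standard error 0.30, adjusted p = 6.88e-06) and -3.60 (0.30, adjusted p = 4.76e-06) in edgeR's quasi-likelihood test, and their difference of -0.11 was smaller than its standard error of 0.38. Glyma.02G089100 fell as well, by 2.82 (adjusted p = 9.7e-05) and by 3.40 (adjusted p = 2.7e-05) on the log2 scale. Glyma.02G087400, named here after its values were seen, had the highest shift at R6 among the 40 abundant members. It fell from 34.6 ± 3.19 to 1.82 ± 0.256 CPM in BR16 and from 61.2 ± 7.56 to 5.56 ± 2.48 CPM in GmNAC81-3 (SD, n = 3), by 4.25 and 3.46 on the log2 scale (adjusted p = 4.56e-06 and 1.09e-05, edgeR quasi-likelihood). All 3 fell with age in both genotypes.

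The members that rose most in BR16 were Glyma.02G088100, Glyma.02G064300, Glyma.02G063400, Glyma.02G069200 and Glyma.02G088700, of which Glyma.02G064300 and Glyma.02G063400 lie before the left edge. Glyma.02G069200 rose from 0.0823 ± 0.0847 to 2.57 ± 0.458 CPM in BR16 and from 0.0881 ± 0.153 to 3.84 ± 1.24 CPM in GmNAC81-3 (SD, n = 3), with adjusted p of 0.000381 and 0.000367 in edgeR's quasi-likelihood test. All counts of Glyma.02G069200 in GmNAC81-3 V3 came from replicate 1, so its size of change there rests on that library (5.32 with it and 11.02 against 0 counts without it, on the fitted log2 scale). Glyma.02G088700 rose from 0.447 ± 0.271 to 12.3 ± 8.64 CPM in BR16 and from 0.430 ± 0.300 to 8.29 ± 2.98 CPM in GmNAC81-3. All 5 were rare at V3. Glyma.02G063400 rose by 5.02 in BR16 (adjusted p = 0.000816) and by 3.67 in GmNAC81-3 (adjusted p = 0.00441), with wide libraries at R6 in BR16 (4.02 ± 2.96 CPM, SD, n = 3). In GmNAC81-3 most of its counts at V3 came from replicate 1, without which the change was 5.55. Glyma.02G064300 had 2 counts in BR16 V3 and 122 in BR16 R6, a ratio of 44.2. Its 95% exact counting interval was 11.97 to 369 if each count is 1 fragment. Both counts at V3 came from BR16 V3 replicate 1, and without that library the fitted log2 change went from 5.31 to 7.97, a value against 0 counts that is no measured size. Glyma.02G088100 had no count in any V3 library of either genotype and was at least 3.45-fold higher at R6 in BR16. Its change in GmNAC81-3 missed the threshold (edgeR quasi-likelihood, adjusted p = 0.0515), and the call in BR16 was lost in a fit of both BR16 groups with a replicate block (adjusted p = 0.0578).

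At higher levels, 3 members with a shift at both stages also rose with age. Glyma.02G081000 held 9.10, 7.44 and 7.88 CPM in BR16 V3 and 24.7, 26.7 and 32.4 CPM in BR16 R6, and in GmNAC81-3 it held 17.1 ± 2.48 CPM (SD, n = 3) at V3 and 60.6, 65.0 and 64.3 CPM at R6. The stage effects were 1.78 and 1.89 (adjusted p = 2.51e-05 and 1.43e-05, edgeR's quasi-likelihood test), and the shifts between genotypes 1.07 and 1.18. Glyma.02G072500 rose by 2.55 in BR16 (adjusted p = 0.000771) and by 1.37 in GmNAC81-3 (adjusted p = 0.02). The second of these calls was lost without GmNAC81-3 V3 replicate 1, where the change was 0.95, and in the fit of both GmNAC81-3 groups alone (adjusted p = 0.0585). Glyma.02G075100 rose by 1.48 and 1.07, of which the second was no longer past a log2 fold change of 1 without GmNAC81-3 V3 replicate 3 (0.85) or GmNAC81-3 R6 replicate 1 (0.92).

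Of the named members, Glyma.02G073900, listed as GATA transcription factor 4, fell from V3 to R6 by 1.89 in BR16 (adjusted p = 0.0193) and by 3.57 in GmNAC81-3 (adjusted p = 0.000692, both edgeR's quasi-likelihood test). In BR16 this call did not hold without V3 replicate 1, R6 replicate 2 or R6 replicate 3 of that cultivar, where the adjusted p went up to 0.0793. Neither Glyma.02G085900 nor Glyma.02G086100 passed the fold limit, with stage effects of -0.05 and 0.77 for the former and 0.77 and 0.89 for the latter, in BR16 and GmNAC81-3 respectively. Glyma.02G078500 fell by 1.60 in BR16 (adjusted p = 0.0306), which no longer passed without V3 replicate 3 of BR16 or any single R6 replicate of BR16, where the adjusted p went up to 0.0987. In GmNAC81-3 its change was -2.02 (adjusted p = 0.0103), with replicate 1 of V3 at 71.3 CPM within the range of the R6 libraries.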

How the data were processed

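The authors deposited raw read counts per transcript model, not normalized, from stranded paired-end libraries. The supplementary methods name Sickle, Bowtie 2, the genome Wm82.a2.v1 and Rsubread, while the submitters' processing notes name HISAT2 2.1.0 and featureCounts. Which of these made the table is not given in the sources used here. How reads that match related copies were counted is likewise not given. Models were summed per locus.

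The tests were edgeR's quasi-likelihood tests (version 4.0.16, R 4.3.3) in 1 model of the 4 group means with TMM factors, after filterByExpr. The Benjamini-Hochberg adjustment ran across all 39443 loci that passed. Calls required an adjusted p below 0.05 together with a log2 change beyond 1 in size. Log2 CPM per library used a prior count of 2. Intervals and floors cover counting error only. They take each count as a separate fragment, while low counts were mostly even numbers, so the intervals may be too narrow. The script was tested on simulated data with known changes. Replicates are separate plants, so p-values measure the spread between these plants of 1 line and 1 cultivar.

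The segment, its members and all lists were chosen with earlier results of these data known. The loci named are the 5 inside and outside each end; the 8 highest and up to 4 lowest shifts at V3 among members apart at both stages; the 8 highest by CPM; the 5 highest and 5 lowest called stage effects in BR16 with libraries apart; members in the study's lists; and members called for a different stage effect or apart in opposite directions at V3 and R6, of which there were none. Loci beside the edges, the 9 called at R6 and single neighbours were named after their values were seen.

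Replicate numbers were checked by the correlation of deviations from group means. BR16 V3 and GmNAC81-3 V3 libraries of the same number had 0.404, 0.221 and 0.129. Their mean of -0.121 for differently numbered libraries adds no support, since deviations within a group sum to 0. BR16 R6 and GmNAC81-3 R6 libraries of the same number had -0.147, -0.366 and -0.119. The other pairs of groups each had values on both sides of 0. The labels do not say whether the numbers pair plants. A replicate block was fitted as an alternative only, and the main model paired no groups. Alternatives were DESeq2 1.42.0, its size factors in edgeR, other filters, 2 groups alone, the replicate number as a block, other thresholds and each library left out. Planned comparisons with related proteins, and leaf, nodule and seed markers by description, were not run, since 0 IDs of the table matched the reference. No sequence is shown for this reason.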

Additional observations from a re-analysis of the deposited data

Results flagged for a closer look

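A pair of members had all R6 libraries on opposite sides of the V3 libraries in the genotypes. The share of all tested loci with this pattern was not counted, so nothing is read from it about the segment. Glyma.02G064800 had a difference of stage effects (GmNAC81-3 minus BR16) of 0.53, and Glyma.02G066000 of -0.70, on the log2 scale. Glyma.02G064800 held 1.44 to 2.05 CPM at V3 and 1.18 to 1.36 CPM at R6 in BR16, and 1.39 to 1.59 CPM at V3 and 1.60 to 1.66 CPM at R6 in GmNAC81-3. Glyma.02G066000 held 3.27 to 3.89 CPM at V3 and 4.07 to 4.19 CPM at R6 in BR16, and 4.77 to 6.27 CPM at V3 and 3.51 to 4.24 CPM at R6 in GmNAC81-3. Neither difference passed edgeR's quasi-likelihood test (adjusted p = 0.457 and 0.25). Glyma.02G064800 lies before the left edge of the raised stretch at both stages, and Glyma.02G066000 lies before it at R6 and is the first locus inside at V3. With 3 libraries a group, single libraries that stand apart were not tested.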

How the results depend on the processing

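Single loci were followed through the alternatives for the lists of shifts at V3, of CPM, of stage effects and of the study's names. Loci named for another reason alone, such as their place at the ends, were not followed. Nor were the stage effects of Glyma.02G081000, Glyma.02G087400 and Glyma.02G089100. No called value among those followed changed sign under any alternative. Of the shifts followed, 4 that were not called changed sign when 1 library was left out. Their ranges were -0.63 to 0.29 for Glyma.02G073900 at R6 and -0.05 to 0.35 for Glyma.02G088900 at R6. They were -0.20 to 0.58 for Glyma.02G064700 at V3 and -0.09 to 0.43 for Glyma.02G061100 at R6. In edgeR fits with another filter, another set of groups or a library left out, the left edge at R6 stayed at Glyma.02G066300 in 18 of 19 settings, the original included, and moved to Glyma.02G066400 in 1, while the right edge lay at Glyma.02G091300 in 10, at Glyma.02G091500 in 8 and at Glyma.02G089300 in 1 (no filter). With at least 10 counts required in every library, which left 141 members, the stage contrast called 18 higher and 23 lower in BR16 and 15 and 30 in GmNAC81-3, 2 members were higher at R6 and the median shift at V3 was 0.81. Without a filter, 3 members were higher at R6 and the medians were 0.47 at V3 and 0.76 at R6. DESeq2 gave medians of 0.52 and 0.77, 45 members higher at R6 and 9 with a different stage effect (Glyma.02G073600, Glyma.02G073700, Glyma.02G074800, Glyma.02G075200, Glyma.02G075600, Glyma.02G077700, Glyma.02G080200, Glyma.02G081100 and Glyma.02G082800), against 0 in edgeR. Without a fold limit, 50 members were called higher with stage in GmNAC81-3. With 2 groups alone, 0 members were higher at V3 and 1 at R6. With the replicate block over 12 libraries, 2 were higher at R6 and 35 at V3, and with 2 groups and the replicate block 0 and 46. Apart from Glyma.02G088100 in BR16, the block ended no stage call among the loci followed. Chosen after seeing the data, counts per transcript model called 53 models higher and 70 lower with stage in BR16, and members of 10 CPM or more had medians of 1.05 and 1.03. Leaving out 1 library at a time gave 27 to 35 higher and 38 to 49 lower with stage in BR16, 32 to 37 and 43 to 48 in GmNAC81-3, 0 to 3 with a different stage effect (3 without GmNAC81-3 V3 replicate 1), 12 to 43 higher at V3, 0 to 14 higher at R6, and medians of 0.58 to 0.70 at V3 and 0.82 to 0.89 at R6. The alternative identity limit for related proteins was not run. Depth limits the values of the 59 members under 1 CPM.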
